A study of Mus musculus with 6 samples.

Results

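The genes described here encode the machinery that carries newly made proteins from the endoplasmic reticulum (ER) to the Golgi and returns escaped components. They are 46 genes chosen by function, of 23462 named genes on the array: 13 of the COPII coat and its GTPase cycle, 11 of the COPI coat with ARF GTPases, 9 Tmed (p24) cargo adaptors, 7 cargo and retrieval receptors, and 6 SNAREs, a tether and a Yip family protein. A gene was taken where the RefSeq accession of a probe in the scanner files belongs to it, and all 46 were found and tested. Expression was compared in acinar cells, the enzyme-secreting cells of the pancreas, isolated from C57BL/6 mice of 2 genotypes. The groups are titled KC (n = 3 arrays) and KCS (n = 3). Both carry Ptf1aCre and a further engineered allele, so the controls are not wild type, and KCS alone also carries Setdb1flox/flox. In both, the recombinase Cre is made under Ptf1a, a gene of the pancreatic lineage. In KCS, Cre can also recombine the floxed alleles of Setdb1, the gene of an enzyme that methylates histone H3 and silences chromatin. The study asked, by its title, about the role of Setdb1 in the formation of pancreatic cancer. No age is given in the labels, and they do not say whether each array came from its own animal, so p-values measure the spread between these samples, which may be technical in part.

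An acinar cell exports large amounts of digestive enzymes, and its ER to Golgi traffic is correspondingly heavy. On the ER, the GTPase SAR1 recruits an inner layer of SEC23 and SEC24, which selects cargo, and an outer cage of SEC13 and SEC31, and together they form COPII vesicles. At the Golgi, ARF GTPases recruit the COPI coat, which carries escaped ER proteins and recycling receptors back. SNARE proteins and tethers then let vesicles dock and fuse.

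The DNA before the start site is shown first for 5 members with which the later results deal. For 40 of the 46 members the RefSeq promoter table (GRCm38.p6) holds a window of 300 bases, 250 before the start and 50 after it. The letters ACGTG, the core of elements that factors of the secretory stress response can bind, stood on either strand in a window of 26 of these 40 members (65%). Of all 12839 tested genes in the table, 27.0% held them, and 19.6% of all 32851 windows. In the bases before the start alone, 18 of 40 members (45%) and 23.0% of the tested genes held the core. Both strands were searched, and where the core overlaps its own reverse complement 2 matches count. The core was in 11 of 18 members that fell, in all 3 that rose and in 12 of 19 that were not called. The full ER stress element, CCAAT and CCACG with 9 free bases between, was in none of the 40, and in 0.171% of the tested genes. A match is a description of these letters and not of a bound site. The bases before the start of 5 members follow, 5′ to 3′ on the gene's strand, with ACGTG or its reverse complement in capitals. Copz2 (chr11:96849626-96849875, plus strand), Tmed3 (chr9:89705044-89705293, minus strand) and Mcfd2 (chr17:87265948-87266197, minus strand) are large falls chosen because they hold the core, which the windows of Preb, Sec23b and Bet1, also large falls, lack, Sec24b (chr3:130060908-130061157, minus strand) is a gene whose main probe rose and holds it too, and Tmed6 (chr8:107065645-107065894, minus strand) is the largest fall and lacks it.
Copz2: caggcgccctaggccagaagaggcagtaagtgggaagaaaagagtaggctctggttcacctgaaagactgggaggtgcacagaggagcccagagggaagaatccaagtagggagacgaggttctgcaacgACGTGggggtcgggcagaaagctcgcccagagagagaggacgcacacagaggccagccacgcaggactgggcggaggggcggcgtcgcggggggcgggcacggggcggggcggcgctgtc
Tmed3: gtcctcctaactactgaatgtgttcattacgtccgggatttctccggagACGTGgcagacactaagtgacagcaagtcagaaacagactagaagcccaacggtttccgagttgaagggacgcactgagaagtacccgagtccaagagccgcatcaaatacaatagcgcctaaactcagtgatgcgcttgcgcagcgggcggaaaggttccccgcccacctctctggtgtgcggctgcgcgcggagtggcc
Mcfd2: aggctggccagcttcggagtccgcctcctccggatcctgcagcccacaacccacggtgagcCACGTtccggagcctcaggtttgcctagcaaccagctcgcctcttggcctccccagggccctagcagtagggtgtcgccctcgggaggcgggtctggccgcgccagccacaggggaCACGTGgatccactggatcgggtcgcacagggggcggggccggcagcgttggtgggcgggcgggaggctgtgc
Sec24b: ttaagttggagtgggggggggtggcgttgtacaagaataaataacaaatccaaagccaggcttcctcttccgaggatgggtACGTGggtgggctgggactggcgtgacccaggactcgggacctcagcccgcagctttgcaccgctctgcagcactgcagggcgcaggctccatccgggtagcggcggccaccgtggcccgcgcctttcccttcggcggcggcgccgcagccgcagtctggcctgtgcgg
Tmed6: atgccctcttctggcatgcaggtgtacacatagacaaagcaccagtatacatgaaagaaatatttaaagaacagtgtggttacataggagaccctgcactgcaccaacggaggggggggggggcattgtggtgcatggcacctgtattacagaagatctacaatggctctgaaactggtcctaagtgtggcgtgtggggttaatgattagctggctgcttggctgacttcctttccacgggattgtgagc
In Copz2 the core begins 120 bases before the start, in Tmed3 201 bases and in Sec24b 169 bases. Mcfd2 has 3 matches, of which the overlapping pair lies 73 and 72 bases before the start.

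The arrays of the 2 genotypes differed beyond these genes. Each value below is the log2 signal relative to the array's 75th percentile, over all probes that are not controls. In scanner units, that percentile lay between 61.2 and 68.6 for KC but between 347 and 423 for KCS, so every change is relative to it. Acinar enzyme genes, 20 in the list used, were all well above background on each KC array, and 10, 17 and 20 of them on KCS replicates 1, 2 and 3. Their median was 11.36 to 11.64 in KC and -4.75, -1.03 and 6.84 in KCS replicates 1, 2 and 3, and all 20 fell. The KCS samples thus differ from each other and from the acinar label, and replicate 3 held the most acinar signal. All 11 fibroblast and stellate cell markers rose (summed log2 level 7.72 to 8.16 in KC and 10.19 to 10.50 in KCS) and were detected on every array, as did 8 of 9 macrophage markers (5.75 to 6.37 and 8.19 to 8.64, with Fcgr1 not above background on any KC array). Ductal markers rose in 5 of 9 (8.57 to 8.69 and 9.27 to 9.81), endothelial markers in 6 of 7 (3.75 to 4.0 and 4.91 to 5.66), and islet markers fell in 8 of 9 (9.85 to 10.07 and 7.17 to 7.97). Of 6 plasma cell markers 4 were tested and 2 rose, Jchain and Sdc1. Pou2af1 (2.09) and Cd79a (-1.33) were not called, and Jchain and Pou2af1 were not above background on any KC array. Of 6 acinar transcription factors 5 fell (7.83 to 8.21 and 2.10 to 4.56). The part of these shifts in the results below was not tested. Fewer cells of a type and less RNA per cell cannot be told apart in such bulk samples. The only Setdb1 probe was at -0.91, -1.05 and -0.32 in KC and -0.28, -0.44 and -0.55 in KCS (log2 difference 0.33 ± 0.24 SE, limma adjusted p = 0.270). Whether it lies in the deleted part is not known here, so it does not check the genotype.

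More of the transport genes fell than rose in KCS. Of 46 members, 22 fell, 3 rose and 21 were not called by limma at an adjusted p below 0.05. Over all 27102 rows tested, 34.4% were called lower, 25.9% higher and 60.3% either way. Among the 16263 named genes tested these shares were 29.1%, 32.4% and 61.6%. The members' shares were 47.8% lower and 6.52% higher. Their median log2 difference, KCS minus KC, was -0.46, against -0.19 over all rows and 0.07 over all named genes. On the first slide, which holds replicate 1 of each genotype, it was -0.34, and on the second, with replicates 2 and 3, it was -0.45. The sign was the same on both slides in 41 of 46 members and in 88.3% of all rows. The KC and KCS arrays did not overlap in 30 members, 24 lower and 6 higher, against 68.2% of all rows and 70.9% of the named genes.

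The split depends on how arrays are scaled. With median centring 14 of 46 members fell and 8 rose, against 26.0% of all rows called lower and 33.8% called higher. With quantile normalization 18 fell and 4 rose, against 29.3% and 29.2% of all rows. Scaling to the spike-in probes instead moved the median of all rows to 2.70, and 1 member then fell and 43 rose, with a members' median of 2.43. Under spike-in scaling 2.85% of all rows were called lower and 87.2% higher. This scaling adds the same amount to the difference of every gene, so it changes no gene's place among the others. Of the 46 members 25 lay below the median of all rows, which by definition splits the rows evenly. Of the 16263 named genes 6887 lay below it. The count of 3 higher members became 0 by limma when KC replicate 1 or either of KCS replicates 1 and 2 was left out (2, 3 and 2 at an unadjusted p below 0.05), 1 without KC replicate 3 and 6 without KC replicate 2. The count of lower members was 17 to 20 with 1 array left out, and 17 of the 22 falls stayed past the threshold whichever array was left out.

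**Figure D1:**
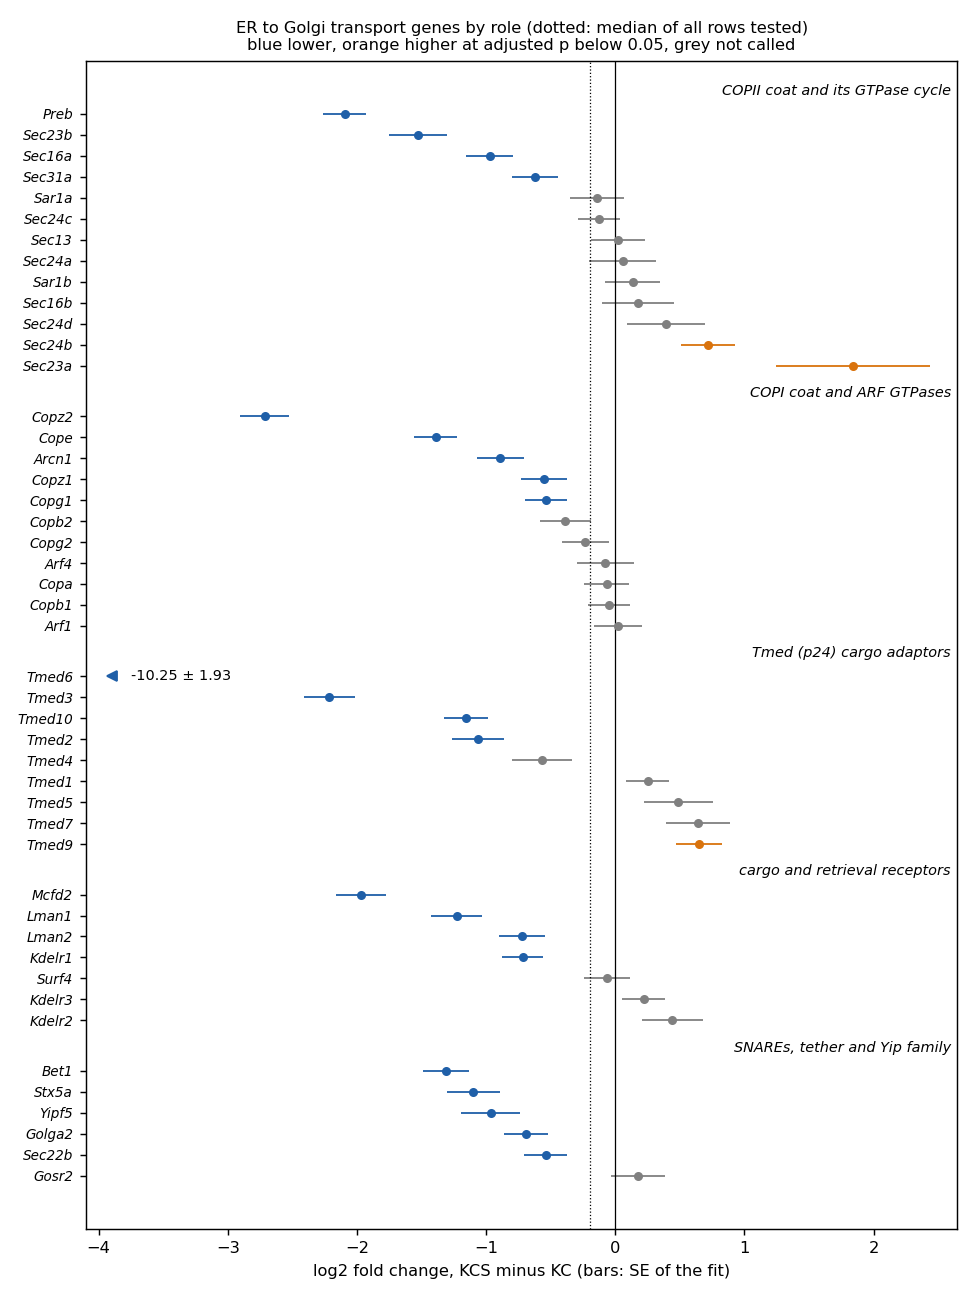
Log2 fold change, KCS minus KC, of each of the 46 members, ordered within role groups, with the SE of the limma fit (3 arrays per group). Blue marks the 22 members called lower, orange the 3 called higher and grey the 21 not called. The dotted line is the median of all rows at -0.19, and Tmed6 at -10.25 lies off the axis to the left.

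In the COPII group, 4 of 13 genes fell, 2 rose and 7 were not called, with a median of 0.02. The share that fell, 30.8%, was near the 34.4% of all rows and 29.1% of named genes. The fall was strongest in Preb, which encodes SEC12, the ER exchange factor that loads SAR1 with GTP. Preb was at 5.49, 5.41 and 5.57 in KC replicates 1 to 3 and at 3.37, 3.29 and 3.54 in KCS. Every KCS value lay well below every KC value, and Preb fell by 2.09 ± 0.17 (SE), or 4.27-fold (adjusted p = 1.93e-04). Its second probe gave -1.86. Sec16a, a scaffold of ER exit sites, fell by 0.97 ± 0.18 (adjusted p = 0.00397). Its second probe gave -0.96 and median centring -0.62 (adjusted p = 0.0349). Its relative Sec16b was at 0.18 ± 0.28 (adjusted p = 0.599). Sec31a, of the outer cage, fell by 0.62 ± 0.18 (adjusted p = 0.0224). That call was lost without KC replicate 1, KC replicate 2, KCS replicate 2 or KCS replicate 3 (adjusted p up to 0.0855), with median centring (-0.27, adjusted p = 0.279) and on the second slide alone (adjusted p = 0.0565), and its second probe gave -0.29. Sec13, its partner in the cage, was at 0.02 ± 0.21 (adjusted p = 0.936).

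The SEC23 paralogues, which activate the GTPase of SAR1, moved in opposite directions. Sec23b was at 4.05, 4.57 and 3.97 in KC and 2.53, 2.66 and 2.84 in KCS, a fall of 1.53 ± 0.22 (adjusted p = 0.00155). Sec23a was at -2.43, -0.54 and -2.93 in KC and -0.15, -0.01 and -0.21 in KCS. The 3 KCS values of Sec23a lay close together above all KC values, while KC replicate 2 stood apart from the other KC arrays, and KC replicate 3 was not well above background. Sec23a rose by 1.84 ± 0.59 (adjusted p = 0.0340). The call ended when any single array other than KC replicate 2 was left out (adjusted p up to 0.0926) and within the second slide alone (1.62, adjusted p = 0.156). Within each array, Sec23a minus Sec23b was -6.48, -5.12 and -6.90 in KC and -2.68, -2.67 and -3.05 in KCS. This difference does not depend on a constant scaling of the array. It shifted by 3.37 toward Sec23a (slide 1 3.80, slide 2 3.15). Markers of acinar, islet, ductal, endothelial and fibroblast cells and of macrophages also differed between the genotypes, as above, and their part was not tested.

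Of the 4 SEC24 paralogues, which bind cargo, the main probe of 1 was called. Sec24b was at 1.90, 1.96 and 2.19 in KC and 2.85, 2.93 and 2.43 in KCS, without overlap, and rose by 0.72 ± 0.21 (adjusted p = 0.0227). Its second and dimmer probe went the other way, at -1.42 ± 0.20 (adjusted p = 0.00140). The direction of Sec24b is therefore not settled by these arrays, and the mean of both probes was at -0.35 (adjusted p = 0.152). The call was also lost on the second slide alone (adjusted p = 0.130) and without KC replicate 1, KC replicate 2, KCS replicate 1 or KCS replicate 2 (adjusted p up to 0.0850). The main probes of Sec24a (0.06 ± 0.26), Sec24c (-0.12 ± 0.16) and Sec24d (0.39 ± 0.30) were not called, and neither were those of the GTPases Sar1a (-0.14 ± 0.21) and Sar1b (0.14 ± 0.21). Other probes of Sar1a (-1.37, adjusted p = 5.97e-04) and Sec24a (-0.87, adjusted p = 0.0101) were lower.

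**Figure D2:**
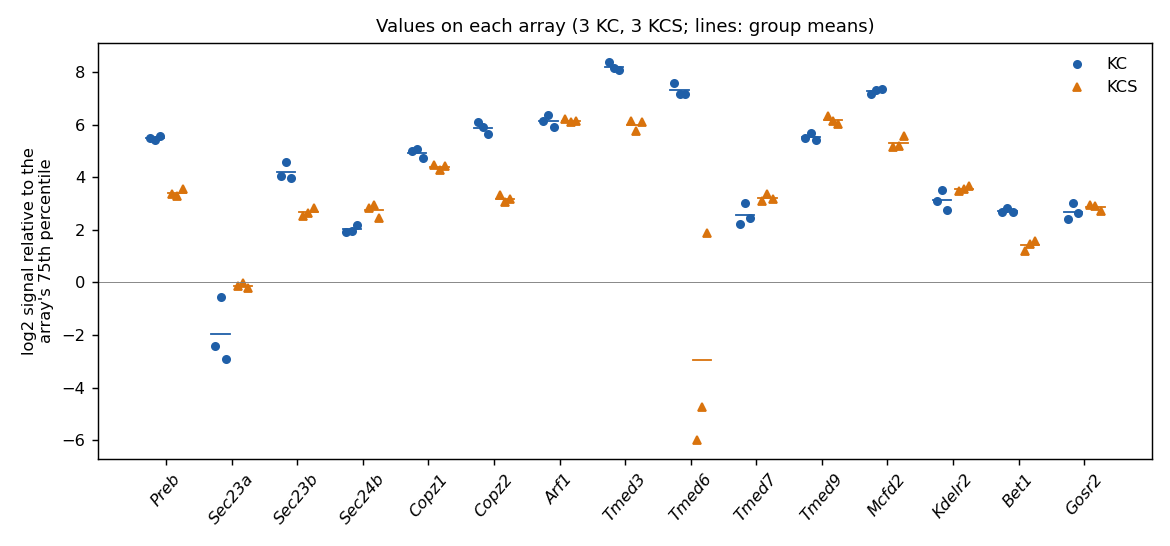
Log2 signal relative to the array's 75th percentile on each of the 3 KC (circles) and 3 KCS (triangles) arrays for 15 members, with group means as lines. Levels of different genes are not comparable, since each has its own probe. Preb, Sec23b, Copz1, Copz2, Tmed3, Tmed6, Mcfd2 and Bet1 lie lower on all KCS arrays, and the Tmed6 values of KCS spread from -5.99 to 1.89.

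In the COPI group, 5 of 11 genes fell, none rose and 6 were not called, with a median of -0.39 (limma; 0 higher also at an unadjusted p below 0.05). The falls make up 45.5% of the group, against 34.4% of all rows and 29.1% of named genes. Copz2, an alternative zeta subunit of the coat, stood out at 6.09, 5.93 and 5.66 in KC and 3.31, 3.07 and 3.15 in KCS. All its KCS values lay below the KC values, and it fell by 2.71 ± 0.19, or 6.56-fold (adjusted p = 1.43e-04), with its second probe at -2.33. Copz1, the other zeta subunit, was at 5.0, 5.08 and 4.74 in KC and 4.46, 4.28 and 4.42 in KCS, and fell by 0.55 ± 0.18 (adjusted p = 0.0341). Leaving out any array but KC replicate 3 ended that call (adjusted p up to 0.116), as did median centring (-0.20, adjusted p = 0.411), quantile normalization (-0.34, adjusted p = 0.106) and a fit of slide 2 only (adjusted p = 0.117). Copz1 minus Copz2 was -1.09, -0.85 and -0.92 on the KC arrays and 1.14, 1.21 and 1.27 on the KCS arrays. The balance between their probes thus shifted by 2.16 toward Copz1 (slide 1 2.23, slide 2 2.12).

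Among the other coat subunits, Cope, which encodes epsilon-COP, fell by 1.39 ± 0.16 (adjusted p = 6.82e-04) and Arcn1, which encodes delta-COP, by 0.89 ± 0.19 (adjusted p = 0.00641, second probe -1.74, median centring -0.53). Copg1, a gamma subunit, fell by 0.54 ± 0.16 (adjusted p = 0.0268), but the call ended without any array other than KCS replicate 3 (adjusted p up to 0.0930), with median centring (-0.18, adjusted p = 0.377) and on the second slide alone (adjusted p = 0.116), and its other probes gave 0.74 and -0.28. The alpha subunit gene Copa (-0.06 ± 0.17), the beta subunit genes Copb1 (-0.05 ± 0.16) and Copb2 (-0.39 ± 0.20) and Copg2 (-0.23 ± 0.18) were not called. Second probes of Copa (-0.77, adjusted p = 0.0114) and Copg2 (1.51, adjusted p = 0.0164) were called, in opposite directions. Arf1, the GTPase that recruits the coat, was at 6.12, 6.38 and 5.91 in KC and 6.21, 6.11 and 6.15 in KCS, which overlap, and its difference was 0.02 ± 0.19 (adjusted p = 0.928). With quantile normalization Arf1 was called higher, at 0.77 (adjusted p = 0.00897). Arf4 was at -0.08 ± 0.22 (adjusted p = 0.784).

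In the Tmed family, whose members span the membrane and link cargo to the coats, 4 of 9 genes fell, 1 rose and 4 were not called (median -0.57). Lower calls were thus 44.4% of the family, against 34.4% of all rows and 29.1% of named genes. The largest fall of all members was that of Tmed6. It was at 7.60, 7.15 and 7.18 in KC and at -5.99, -4.72 and 1.89 in KCS. All KCS values lay far below KC, but KCS replicate 3 was 7.24 above the mean of the other KCS arrays, and KCS replicate 1 was not well above background. Tmed6 fell by 10.25 ± 1.93 (adjusted p = 0.00424). On the second slide, where both KCS arrays measured the gene, the log2 difference was -8.58 (adjusted p = 0.0288). Without KCS replicate 3 it was -12.67 (adjusted p = 5.96e-05), a value that rests in part on the array at background. The second probe gave -9.05, and spike-in scaling -7.36 (adjusted p = 0.00168), so Tmed6 was the member that fell under that scaling too. The acinar enzyme genes were also highest on that array among KCS, as was Bhlha15, the gene of a transcription factor of secretory cells (MIST1), and their part in the Tmed6 value was not tested. Bhlha15 was at 6.92, 6.58 and 7.06 in KC and at -4.53, -5.09 and 1.30 in KCS (-9.63 ± 1.62, adjusted p = 0.00266). In no other member did KCS replicate 3 differ from the mean of the other KCS arrays by more than 0.51.

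**Figure D3:**
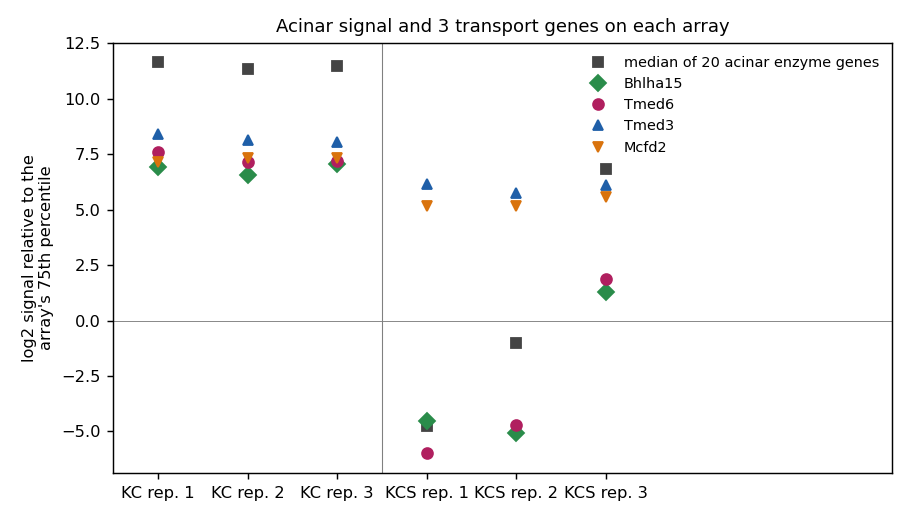
Log2 signal relative to the array's 75th percentile on each array for the median of 20 acinar enzyme genes (squares), Bhlha15 (diamonds), Tmed6 (circles), Tmed3 and Mcfd2 (triangles). On KCS replicate 3 the enzyme median (6.84), Bhlha15 (1.30) and Tmed6 (1.89) lie above the other KCS arrays, while Tmed3 (6.09) and Mcfd2 (5.57) differ from them by at most 0.40.

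Tmed3 was at 8.40, 8.14 and 8.07 in KC and 6.13, 5.74 and 6.09 in KCS, and fell by 2.21 ± 0.20, or 4.64-fold (adjusted p = 2.64e-04). Tmed10, which encodes the abundant adaptor p23, fell by 1.15 ± 0.17 (adjusted p = 0.00164), and its partner Tmed2 by 1.06 ± 0.20 (adjusted p = 0.00431, second probe -1.19). With quantile normalization Tmed3 was at -1.15 (adjusted p = 0.00193), while the calls of Tmed10 (-0.39, adjusted p = 0.0653) and Tmed2 (-0.53, adjusted p = 0.0723) ended. Tmed9 went against the group. It was at 5.49, 5.68 and 5.41 in KC and 6.35, 6.14 and 6.04 in KCS, without overlap, and rose by 0.65 ± 0.18 (adjusted p = 0.0200). It was at 1.0 with median centring and at 1.29 with quantile normalization. The rise was not called on the second slide alone (adjusted p = 0.110) or without KC replicate 1, KC replicate 3, KCS replicate 1 or KCS replicate 2 (adjusted p up to 0.0662).

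Tmed7 was at 2.22, 3.03 and 2.44 in KC and 3.1, 3.35 and 3.16 in KCS (0.64 ± 0.25, adjusted p = 0.0636). With median centring Tmed7 (0.99, adjusted p = 0.0134), Tmed1 (0.60, adjusted p = 0.0256) and Tmed5 (0.84, adjusted p = 0.0372) were called higher. Tmed3 and Tmed7 belong to the same subfamily. The Tmed3 change was negative and the Tmed7 change, not called, was positive, so by arithmetic their balance changed more than either level. Tmed3 minus Tmed7 was 6.18, 5.12 and 5.62 on KC arrays and 3.04, 2.39 and 2.93 on KCS arrays, a shift of 2.85 toward Tmed7. Tmed4 (-0.57 ± 0.23, adjusted p = 0.0715), Tmed1 (0.25 ± 0.16, adjusted p = 0.224) and Tmed5 (0.49 ± 0.27, adjusted p = 0.157) were not called, although the second probe of Tmed1 was at 0.95 (adjusted p = 0.0117).

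Among cargo and retrieval receptors, 4 of 7 genes fell, none rose and 3 were not called, with a median of -0.72 (limma; 0 higher also at an unadjusted p below 0.05). As a share, 57.1% of this small group fell, against 34.4% of all rows and 29.1% of named genes. LMAN1 is a lectin that carries glycoproteins out of the ER in a complex with MCFD2, and both genes fell. Mcfd2 was at 7.16, 7.31 and 7.34 in KC and 5.17, 5.17 and 5.57 in KCS. The groups were far apart, and Mcfd2 fell by 1.97 ± 0.19, or 3.92-fold (adjusted p = 3.39e-04, second probe -1.50, quantile normalization -1.26). Lman1 fell by 1.23 ± 0.20 (adjusted p = 0.00231, second probe -0.88). Lman2, a related lectin, fell by 0.72 ± 0.18 (adjusted p = 0.0133), which was lost without KCS replicate 2 (adjusted p = 0.0570), with median centring (-0.37, adjusted p = 0.111), with quantile normalization (-0.35, adjusted p = 0.147) and on the second slide alone (adjusted p = 0.0555), and its second probe gave 0.06. Surf4, a receptor for soluble cargo, was at -0.06 ± 0.18 (adjusted p = 0.768).

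The KDEL receptors, which return chaperones to the ER, did not move together. Kdelr1 was at 2.52, 2.61 and 2.45 in KC and 1.78, 1.80 and 1.85 in KCS, and fell by 0.72 ± 0.16 (adjusted p = 0.00791). With median centring that call ended (-0.36, adjusted p = 0.110), and Kdelr2 (0.80, adjusted p = 0.0288) and Kdelr3 (0.57, adjusted p = 0.0343) were called higher. Kdelr2 was at 3.1, 3.53 and 2.76 in KC and 3.49, 3.55 and 3.68 in KCS, which overlap, with a difference of 0.44 ± 0.24 (adjusted p = 0.147). Kdelr3 was at 0.22 ± 0.17 (adjusted p = 0.287). Kdelr1 minus Kdelr2 was -0.58, -0.92 and -0.31 on KC arrays and -1.71, -1.74 and -1.82 on KCS arrays, a shift of -1.16, and that of Kdelr1 against Kdelr3 was -0.94. Neither pair overlapped between genotypes.

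Of the 6 fusion and docking genes, 5 fell, none rose and Gosr2 was not called (median -0.83; limma, 0 higher also at an unadjusted p below 0.05). These falls are 83.3% of a small group, against 34.4% of all rows and 29.1% of named genes. Bet1, a SNARE of ER to Golgi vesicles, was at 2.68, 2.82 and 2.67 in KC and 1.20, 1.47 and 1.57 in KCS. It fell by 1.31 ± 0.18 (adjusted p = 0.00116), and no KCS value came near the KC range. Its partner SNAREs Stx5a and Sec22b fell by 1.10 ± 0.20 (adjusted p = 0.00397) and by 0.54 ± 0.17 (adjusted p = 0.0305). The Stx5a fall was smaller in its second probe (-0.23), and that of Sec22b was lost when any array but KC replicate 2 was left out (adjusted p up to 0.108). The membrane protein gene Yipf5 fell by 0.96 ± 0.23 (adjusted p = 0.0107) and Golga2, which encodes the Golgi tether GM130, by 0.69 ± 0.17 (adjusted p = 0.0130). With median centring the calls of Yipf5 (-0.61, adjusted p = 0.0507), Golga2 (-0.34, adjusted p = 0.163) and Sec22b (-0.19, adjusted p = 0.413) ended, and those of Golga2 (adjusted p = 0.0803) and Sec22b (adjusted p = 0.117) also ended on the second slide alone. Gosr2 was at 2.43, 3.01 and 2.62 in KC and 2.95, 2.91 and 2.72 in KCS, which overlap (0.17 ± 0.21, adjusted p = 0.499). Its second probe was at -1.25 (adjusted p = 0.00407), so the probes of Gosr2 disagree.

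Over 15 pairs of related members, the within-array difference did not overlap between genotypes in 10. Over single genes 68.2% of all rows and 70.9% of named genes did not overlap, and the share over other gene pairs was not computed. With 3 arrays against 3 the smallest p an exact two-sided permutation test can give is 0.1, and these 10 reached it (0.15 adjusted over the 15 pairs), so no pair could pass 0.05. The 3 shifts over 2 on the log2 scale were those of Sec23a and Sec23b, Tmed3 and Tmed7, and Copz1 and Copz2. Pair shifts were not computed with quantile normalization, which does not move all genes of an array by 1 constant. With it the log2 differences were 1.96 and -1.47 (Sec23a, Sec23b), -1.15 and 0.65 (Tmed3, Tmed7), and -0.34 and -2.45 (Copz1, Copz2). In the main fit Tmed3 was at -2.21. Averaging all probes of a gene changed 4 pairs by over 1.5 times: Sar1a against Sar1b from -0.28 to -0.89, Sec24a against Sec24b from -0.66 to -0.18, Copg1 against Copg2 from -0.31 to -0.66 and Tmed1 against Tmed5 from -0.24 to 0.11.

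**Figure D4:**
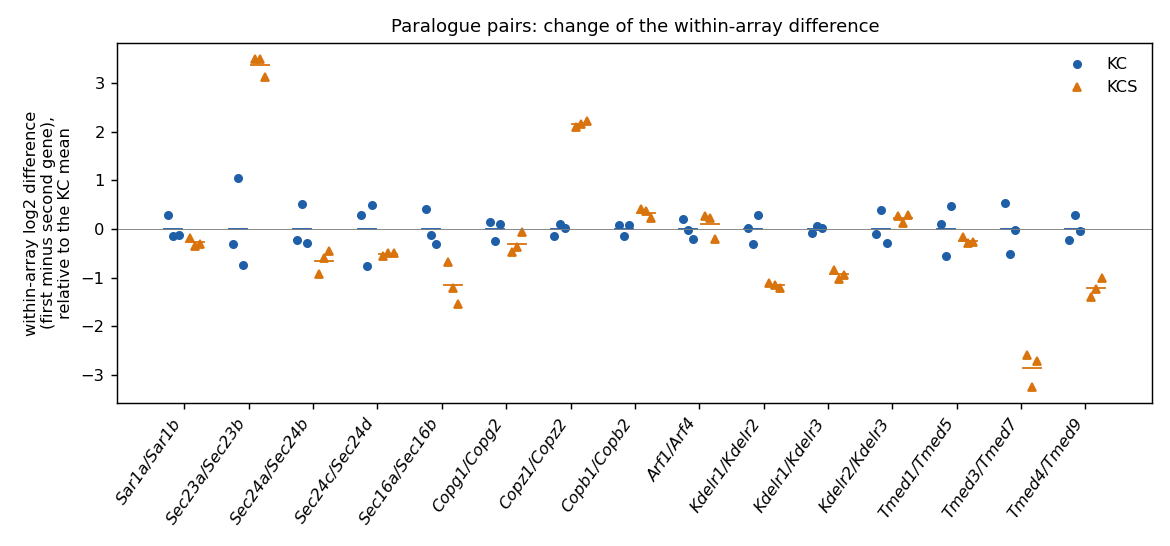
Within-array log2 difference between the genes of 15 pairs (first minus second gene) on each KC (circles) and KCS (triangles) array, relative to the KC mean of the pair, with group means as lines. The 3 largest shifts are 3.37, -2.85 and 2.16, and in 10 pairs the genotypes do not overlap.

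Genes of the same route outside the 46 were read against the 34.4% of all rows called lower and 25.9% called higher (named genes 29.1% and 32.4%). Of 34 tethers, SNAREs and Rab GTPases, 20 fell (58.8%) and 3 rose (median -0.62), and of 30 tested exit site organisers, ARF regulators and other adaptors, 16 fell (53.3%) and 5 rose (median -0.48). The list of 7 transcription factors known for secretory capacity had 4 falls and 1 rise (median -1.13). Its median was -0.77 with median centring and -0.27 with quantile normalization. The rise was that of Creb3l2 (1.33 ± 0.18, limma adjusted p = 0.00118). Over all these lists, Tmed11 and Bhlha15 had the largest falls and Cnih4 and Rab6a the largest rises. Tmed11, a further p24 gene, was not well above background on any KCS array and was at least 220-fold lower there (adjusted p = 3.95e-05). Cnih4, which encodes a cargo receptor of the cornichon family, rose by 1.89 ± 0.17 (adjusted p = 2.56e-04), and Rab6a, a Golgi GTPase, by 1.56 ± 0.18 (adjusted p = 6.34e-04). Xbp1, a factor that drives ER and secretory genes, was at 7.89, 8.22 and 8.53 in KC and 6.77, 6.46 and 6.91 in KCS, and fell by 1.50 ± 0.23 (adjusted p = 0.00198).

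The members varied little within a genotype. The median SD over the 3 arrays was 0.20 in KC and 0.12 in KCS on the log2 scale. Only Tmed6 had a KCS SD over 0.5 (4.23), with the next at 0.36, and in KC only Sec23a (1.26) and Sec24d (0.58) did. Among the KC arrays replicate 2 was the highest for 31 of the 46 members. The same SDs and share over all rows are not given here, so neither is shown to be particular to these genes. Of 21 further probes that measured 19 members, 14 had the sign of the probe used.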

How the data were processed

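Total RNA of 6 samples was labelled with Cy3 after amplification, per the labels' protocols, and read on 1 array per sample. Agilent Feature Extraction 12.0.3.1 gave the spot values, per the submitters' processing notes and the file headers. The deposited processed signal is an intensity, background-corrected by that program, per the file headers, whose array design names mm9. The authors' deposited values are log2, and they matched log2 signals scaled as below and centred on each probe's median (r of 0.999999 or above over 36110 probes).

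Here log2 signals were averaged per probe without spots marked as outliers (88 to 140 per array), and each array's 75th percentile was subtracted. Probes well above background on at least 3 arrays were tested. Accessions matched to RefSeq records of GRCm38.p6 named 33767 of 56605 probes, and the probe with the highest mean stood for a gene. KCS was compared with KC by limma 3.58.1 (lmFit, eBayes, no covariates, two-sided) in R 4.3.3, with Benjamini-Hochberg adjustment over all 27102 rows, and this gives every adjusted p in the text that is not of a pair. Values of second probes come from the same fit over all tested probes, adjusted over those. SE is that of the fit. Where all arrays of a group were at background, a fold is a bound, the brighter group's mean over the higher of each dim array's lowest signal well above background and its own. Pairs were tested with scipy 1.17.1, and promoter letters were counted in Python 3.11.15. The steps were tested on simulated data. No depth exists for arrays, and their number limits the precision.

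An allele that both groups carry is not reported here. The members and lists were chosen with earlier results of these data known. Every member is named. Values on each array are given for the highest and lowest change in each role group, for called members against their group and for pairs whose within-array difference shifted by over 2 without overlap. The array values of Kdelr1 were added after they were seen. Alternatives were other scalings and background corrections, other filters and probe rules, the deposited table, marked spots kept, blocks, single slides and arrays left out, and other eBayes settings.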

Additional observations from a re-analysis of the deposited data

How the results depend on the processing

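Most results kept their direction and their side of the threshold. With the deposited table, marked spots kept, no filter on dim probes, or the 75th percentile of detected probes, all 46 members kept both. The mean signal is not a column of the files, so normexp used the median signal, a choice made after seeing the data. Signal near background limits Tmed6 in KCS and Sec23a in KC. The cause of the changes below was not tested. A stricter threshold cannot raise a count. With 1 array left out the count of rises moved both ways, between 0 and 6, from 3 in the main fit.

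With spike-in scaling, which moved the median of all rows from -0.19 to 2.70, 43 members rose and 1 fell, by group 13 and 0 (COPII), 10 and 0 (COPI), 7 and 1 (Tmed), 7 and 0 (receptors), 6 and 0 (SNAREs). The values that turned positive were Sar1a 2.75, Sec23b 1.37, Sec24c 2.77, Sec31a 2.27, Sec16a 1.92, Preb 0.80, Copa 2.83, Copb1 2.85, Copb2 2.51, Copg1 2.36, Copg2 2.67, Cope 1.51, Copz1 2.34, Copz2 0.18, Arcn1 2.01, Arf4 2.82, Tmed2 1.83, Tmed3 0.68, Tmed4 2.33, Tmed10 1.74, Kdelr1 2.18, Lman1 1.67, Lman2 2.17, Mcfd2 0.93, Surf4 2.83, Sec22b 2.36, Bet1 1.58, Stx5a 1.80, Golga2 2.21, Yipf5 1.93. With median centring 8 members rose and 14 fell. Falls were 3 of 11 COPI, 2 of 7 receptor and 2 of 6 SNARE group members, against 26.0% of all rows. Rises were 4 of 9 Tmed and 2 of 7 receptor members, against 33.8% of all rows. With quantile normalization 1 of 11 COPI members rose and 2 of 9 Tmed members fell, against 29.2% and 29.3% of all rows. With normexp 5 members rose, 1 of them COPI and 2 Tmed, against 27.9% of all rows. At a limma adjusted p below 0.01, 0 members rose (4 at an unadjusted p below 0.05), including 0 COPII and 0 Tmed, and 3 COPI and 2 SNARE group members fell. Within the second slide alone 0 members rose by limma (0 at an unadjusted p below 0.05), including 0 COPII and 0 Tmed, and 3 COPI and 3 SNARE group members fell.

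Averaging all probes of each gene, Sec24a was at -0.53 and Sec24b at -0.35, and 1 COPII and 2 Tmed members rose. Sar1a, not called by its main probe, was then called lower, at -0.75 (limma adjusted p = 0.0101). The falls were then 5 COPII, 4 COPI and 3 receptor members. Other probes gave the opposite sign for Copg1 (0.74), Copg2 (1.51), Gosr2 (-1.25), Lman2 (0.064), Sec24a (-0.87) and Sec24b (-1.42). With detection on all 6 arrays 1 COPII and 2 Tmed members rose. With the slide as a block or trend and robust eBayes 2 Tmed members rose.

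The replicate number as a block gave 3 rises and 21 falls, 1 COPII and 2 Tmed members among the rises. Same-numbered samples correlated in their deviations at 0.33, 0.04 and 0.14, not all over 0.1. The highest was that of replicate 1, whose arrays share the first slide. With 3 arrays per group these values cannot show whether the numbers pair the samples.

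With 1 array left out, the members that rose were 0 to 6 and those that fell 17 to 20. By group these ranges were 0 to 2 and 3 to 4 (COPII), 0 and 3 to 4 (COPI), 0 to 3 and 4 (Tmed), 0 to 1 and 3 to 4 (receptors), 0 and 4 to 5 (SNAREs).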
